A study of Homo sapiens with 24 samples.

Results

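The genes of the BCL2 family followed here were BCL2, BCL2L1, MCL1, BAK1, BAD, BID, BCL2L11, BIK, BMF and HRK. They were chosen by name, as every gene spot of the array that carries 1 of these 10 names, and 19 of the 41000 probes and 10 of the 30982 names on the array met that rule. The cells were U87 MG, an established human glioblastoma line, and RNA was collected 24 h after treatment with a proton beam (PT). In U87 2 Gy and U87 10 Gy the RNA of cells given 2 or 10 Gy was labelled with Cy5 and hybridized together with Cy3-labelled RNA of untreated cells. In U87 Si306 + 2 Gy and in its 10 Gy counterpart, U87 Si306 + 10 Gy, the Cy5 RNA came from cells that received 10 µM Si306, a small molecule inhibitor of SRC family kinases, and the same proton dose, and the Cy3 RNA from cells that received that dose alone. No cells with Si306 and no protons are among the groups, so the second pair of configurations measures Si306 added to protons.

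Proteins of the BCL2 family decide whether the outer mitochondrial membrane is opened during apoptosis. BCL2, the long form of BCL2L1 (BCL-XL) and MCL1 hold cells alive by binding the other members, BAK1 forms the pore, and BAD, BID, BCL2L11 (BIM), BIK, BMF and HRK carry only the BH3 segment, with which they block the survival proteins or activate the pore formers. The short splice form of BCL2L1, as opposed to the long one, promotes death, and MCL1 is a protein with a very short life that cells renew all the time. Glioblastoma cells are known to lean on BCL-XL and MCL1.

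A configuration is 1 of these 4 pairs of RNA, and each was held by 2 arrays, each scanned 3 times, although the labels count 6 biological replicates, and repeat scans were averaged to 1 value for an array. PT alone lay on 1 slide and the Si306 configurations on another. The scan labelled U87 2 Gy replicate 5 lay on an array of U87 10 Gy and the scan labelled U87 10 Gy replicate 2 on an array of U87 2 Gy, and both were left out. On the 8 arrays, Cy5 gave a signal well above background for 64.1% to 74.8% of probes and Cy3 for 56.8% to 64.8%. Whether the 2 arrays of a configuration hold RNA of separate cultures is not settled by the labels, so p-values measure the spread between arrays. The dyes were never swapped, so a dye effect that loess did not remove would be part of every log2 ratio. Of the marker probes of the cells, those of VIM, CD44 and NES were well above background in the untreated RNA on 4 of 4 arrays, as was 1 of 3 GFAP probes, and OLIG2 was on 3 of 4, while SOX2, S100B and the other GFAP probes were on 0 of 4 arrays. Among markers of other cell types, PTPRC, PECAM1, CDH1, MBP and SYP were on 0 of 4, SNAP25 on 4 of 4, and the CD3E probes on 4 and 2 of 4. The irradiation check genes are given with the pathway.

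The probes are 60 bases long and read different parts of a transcript, and the results below differ between probes of 1 gene, so the probes of coding sequence that carry those differences are shown first, as read from the scanner tables, with the positions given there for the hg17 build. The HRK probe A_24_P52882 (chr12:115781690-115781749, minus strand) covers the BH3-coding part of the gene and has a GC content of 76.7%, the highest of the 19 probes. The MCL1 probe A_24_P319635 (chr1:147363811-147363870, minus strand) and the BCL2L1 probe A_24_P100130 (chr20:29773576-29773635, minus strand), which lies in the part that the long and short forms share, have 45% and 46.7%. Capitals mark the longest run of G and C, which is 12, 4 and 3 bases.
HRK A_24_P52882: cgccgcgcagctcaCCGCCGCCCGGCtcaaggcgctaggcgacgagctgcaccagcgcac
MCL1 A_24_P319635: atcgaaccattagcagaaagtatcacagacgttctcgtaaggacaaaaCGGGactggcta
BCL2L1 A_24_P100130: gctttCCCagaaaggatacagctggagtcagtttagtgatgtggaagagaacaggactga

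The BCL2L11 probes A_23_P309991 and A_23_P425954 (chr2:111637949-111638008 and chr2:111637963-111638022, plus strand) overlap in C-terminal coding sequence, and capitals mark the 46 bases they share, so these probes do not measure the gene independently. They are shown because probes of this gene did not all move the same way.
BCL2L11 A_23_P309991: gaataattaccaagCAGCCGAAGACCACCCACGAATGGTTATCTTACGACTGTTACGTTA
BCL2L11 A_23_P425954: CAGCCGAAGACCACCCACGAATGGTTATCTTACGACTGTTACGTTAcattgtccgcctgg

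Of the 19 probes, 18 passed the filter on dim probes, at least 1 for every gene. The probe left out, BCL2L11 A_23_P154426, was not well above background in either channel on any of the 8 arrays. A log2 fold change below is the mean log2 ratio of Cy5 to Cy3 over the 2 arrays of a configuration with its SE, tested against 0 with limma over all tested probes, and a probe is called where its Benjamini-Hochberg adjusted p is under 0.05. In U87 2 Gy, 11 of the 18 probes were called higher and 2 lower, where 32.1% and 25.1% of all tested probes were (57.2% in either direction). In U87 10 Gy, 5 were higher and 3 lower (31.4% and 26.8% of all probes, 58.2% together). With Si306, 10 were higher and 6 lower in U87 Si306 + 2 Gy (36.3% and 28.5% of all probes, 64.8% together), and 9 higher and 6 lower in U87 Si306 + 10 Gy (33.1% and 27.8%, 60.9% together). No member reached a 2-fold change in any configuration, as 0.688%, 0.914%, 0.652% and 0.342% of all probes did in that order, but this holds for the scaling used here and not for others. In the log ratio of the scanner software, 1 member probe in U87 2 Gy and 2 in U87 10 Gy were called at 2-fold or more, all of BCL2L1. A_24_P100130 was the probe in U87 2 Gy and 1 of the 2 in U87 10 Gy. Its untreated RNA was not well above background at either dose. With a normexp offset of 10, 1 member probe was called at 2-fold or more in U87 10 Gy. Under median centring without loess 1 was in U87 10 Gy and, with Si306 added, 6 at 2 Gy and 4 at 10 Gy, beside medians of 0.36 and 0.21 over all probes with Si306. The probe in U87 10 Gy was BCL2L1 A_23_P210886 (1.19 on the log2 scale). With Si306 they were MCL1 A_24_P336754 (1.59 and 1.07), BAK1 (1.13 and 1.04), BAD (1.23 and 1.03) and BID A_24_P187948 (1.36 and 1.02) at both doses, and MCL1 A_24_P336759 (1.05) and BID A_23_P154929 (1.02) at 2 Gy. At any fold, that centring called 84.5%, 80.9%, 89.3% and 79.8% of all probes in the 4 configurations. The median log2 fold change over the 18 probes was 0.10, 0.03, 0.17 and 0.11, beside 0.02, 0.01, 0.03 and 0.02 over all probes. The calls also rest on leaving out spots that the scanner software marked as outliers. With every such spot kept, 11.3%, 12.2%, 22.4% and 13.6% of all probes were called in the 4 configurations. Between doses 1.32% were after protons and 1.04% with Si306. In that setting 16 of the 63 member calls made over the 4 configurations and both dose differences were still made. These were both BID probes in U87 2 Gy and with Si306 at both doses, HRK A_24_P52882 after protons at both doses, MCL1 A_24_P336754 and A_24_P336759 and BAD with Si306 at both doses, BIK in U87 Si306 + 2 Gy, and BID A_24_P187948 between the proton doses. With only the spots of a marked background left out, 63 of 63 were made. Of the called probes, 10 of 13, 7 of 8, 12 of 16 and 12 of 15 were measured well above background in both channels. For the others the fold is a bound only, written as "at least" the brighter channel over the higher of the lowest level well above background and the dim reading, after Aquantile scaling of the channels, which is open to dye bias. Where a log2 ratio is printed for such a probe, it is the reading that entered the fit and not a measured fold.

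**Figure D1:**
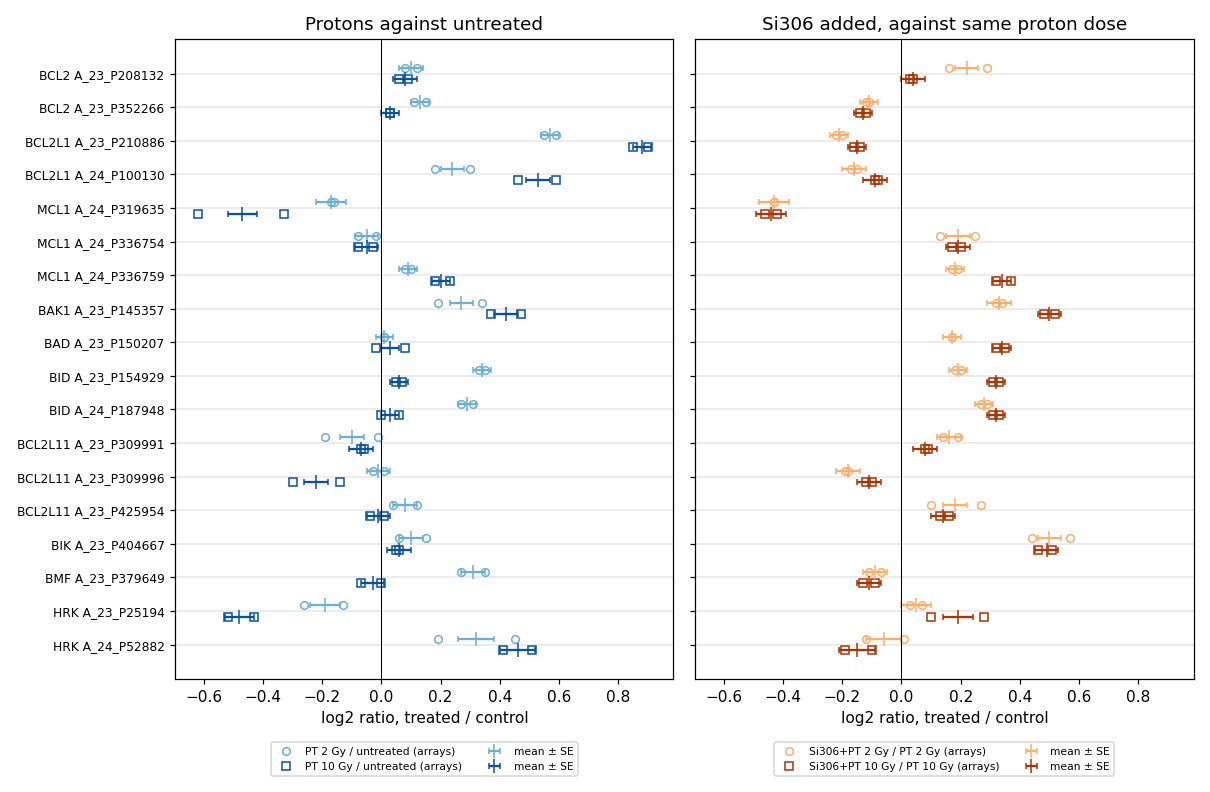
Log2 ratio of treated to control RNA (x axis) of the 18 tested probes (y axis) on the 2 arrays of each configuration (open symbols), with the mean and SE (bars); left, protons against untreated cells, right, Si306 added to the same proton dose. BCL2L1 A_23_P210886 lies at 0.57 and 0.88 on the left and at -0.21 and -0.15 on the right, while BAK1 lies above 0 in all 4 configurations.

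Among the survival genes, BCL2L1 had the highest rise of any member after protons under the scaling used here, and it was lower when Si306 was added. At 2 Gy BID rose more under median centring (0.95 with A_24_P187948) and with outlier spots kept (0.21 with A_23_P154929). The BCL2L1 probe A_23_P210886, which is spotted 10 times, read 0.59 and 0.55 on the arrays of U87 2 Gy and 0.90 and 0.85 on those of U87 10 Gy. The arrays of the doses did not overlap, but for how many of all probes this held was not counted, so it is not support. The mean was 0.57 (SE 0.03, 1.49-fold, adjusted p = 1.14e-07) and 0.88 (SE 0.03, 1.84-fold, adjusted p = 3.42e-09), and the difference between the doses was 0.31 (SE 0.05, adjusted p = 0.00116). With Si306 it read -0.20 and -0.22 at 2 Gy and -0.16 and -0.14 at 10 Gy, a fall by 0.21 (SE 0.03, adjusted p = 0.000181) and by 0.15 (SE 0.03, adjusted p = 0.00231). When scans were centred on their median without loess, this fall was -0.03 at 2 Gy and 0.01 at 10 Gy, and neither was called, and in the log ratio of the scanner software it was -0.42 and -0.29. Under that centring the rise after protons was 0.88 and 1.19. With outlier spots kept it was 0.11 (adjusted p = 1) at 2 Gy and 0.49 (adjusted p = 0.126) at 10 Gy. The probe of the shared coding part, A_24_P100130, was also called higher, but it was well above background only in the Cy5 RNA of PT alone and on no array in untreated RNA or in either channel with Si306. It thus passed the filter only through the RNA in which it was high, so its call adds no support to that of A_23_P210886. Its arrays read 0.30 and 0.18 in U87 2 Gy and 0.46 and 0.59 in U87 10 Gy. It was at least 1.16-fold higher in U87 2 Gy (adjusted p = 0.000418) and at least 1.43-fold higher in U87 10 Gy (adjusted p = 8.94e-07). Under median centring the first of these read -0.03 and was not called. The log2 ratio of this probe depended on the scaling, at 1.51 and 1.93 in the log ratio of the scanner software, 0.46 and 0.98 with an offset of 10, and 0.02 (adjusted p = 1) and 0.24 (adjusted p = 0.135) with outlier spots kept. With Si306 neither channel of A_24_P100130 was well above background, so no fold is given.

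MCL1 did not move as 1 gene. The coding probe A_24_P319635 read -0.17 and -0.16 in U87 2 Gy, -0.62 and -0.33 in U87 10 Gy, -0.43 on both arrays of U87 Si306 + 2 Gy, and -0.46 and -0.42 in U87 Si306 + 10 Gy. It was lower on 8 of 8 arrays. The log2 fold change was -0.17 (SE 0.05, adjusted p = 0.0214), -0.47 (adjusted p = 2.05e-05), -0.43 (adjusted p = 3.76e-05) and -0.44 (adjusted p = 3.64e-05), and the fall after protons differed between 10 and 2 Gy by -0.31 (SE 0.08, adjusted p = 0.0181), a difference that was -0.16 (adjusted p = 0.099) without array 1 of U87 10 Gy and not called without either array of U87 2 Gy (adjusted p = 0.0578 and 0.0614). The call at 2 Gy was lost without either array of U87 2 Gy (adjusted p = 0.12 and 0.0941). Under median centring without loess the values at 2 Gy turned to 0.20 with protons and 0.27 with Si306, and that of Si306 + 10 Gy to 0.02, beside medians of 0.24, 0.36 and 0.21 over all probes. The probe A_24_P336759 read above 0 on 8 of 8 arrays. Its log2 fold change was 0.09 (adjusted p = 0.0338), 0.20 (adjusted p = 0.000271), 0.18 (adjusted p = 0.000496) and 0.34 (SE 0.03, adjusted p = 5.2e-06) in the 4 configurations, and the first call was lost without either array of U87 2 Gy (adjusted p = 0.185 and 0.0916). The third MCL1 probe, A_24_P336754, was not called after protons (-0.05 at both doses, 95% intervals -0.13 to 0.04 and -0.14 to 0.03) and read 0.19 in both Si306 configurations (adjusted p = 0.00114 and 0.00151), the former not called without array 1 of U87 Si306 + 2 Gy (adjusted p = 0.0526). In the ratio of the scanner software the values with Si306 were -0.02 and 0.06 and not called, and under median centring the values after protons were 0.66 and 0.54, and those of A_24_P336759 were 0.58 and 0.63 after protons and 1.05 and 0.91 with Si306. A_24_P319635 and A_24_P336754 have the same GC content, 45%, and A_24_P336759 has 35%. Their levels differ, at 8.24, 14.46 and 9.39 in that order in treated RNA of U87 2 Gy (log2, after Aquantile scaling).

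BCL2 itself moved little under the scaling used here. The probe A_23_P208132, of which the tables place only 36 of 60 bases on the genome, read 0.08 and 0.12 in U87 2 Gy and 0.29 and 0.16 in U87 Si306 + 2 Gy, on average 0.10 (SE 0.04, adjusted p = 0.0457) and 0.22 (SE 0.04, adjusted p = 0.000305). The first of these was 0.01 (adjusted p = 0.802) after a GC curve was subtracted, and it was not called without any 1 of the arrays of U87 2 Gy, U87 10 Gy or U87 Si306 + 10 Gy (adjusted p = 0.0609 to 0.259). In both 10 Gy configurations it was not called (0.08, adjusted p = 0.10, and 0.04, adjusted p = 0.414). Under median centring it was called higher in all 4 configurations, at 0.44, 0.41, 0.49 and 0.25 (adjusted p = 0.000193 for the last). The other probe, A_23_P352266, was at least 1.07-fold higher in U87 2 Gy (adjusted p = 0.00488), with untreated RNA not well above background, and fell with Si306 by 0.11 (SE 0.03, adjusted p = 0.00858) at 2 Gy and by 0.13 (SE 0.03, adjusted p = 0.00415) at 10 Gy. The first of these calls was lost without array 1 of U87 2 Gy (adjusted p = 0.0706), the second without either array of its configuration (adjusted p = 0.0555 and 0.0791) and the third without array 1 of its own (adjusted p = 0.0647). Under median centring the values were -0.16, 0.09 and 0.01, and in the log ratio of the scanner software the falls with Si306 were -0.24 and -0.26.

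**Figure D2:**
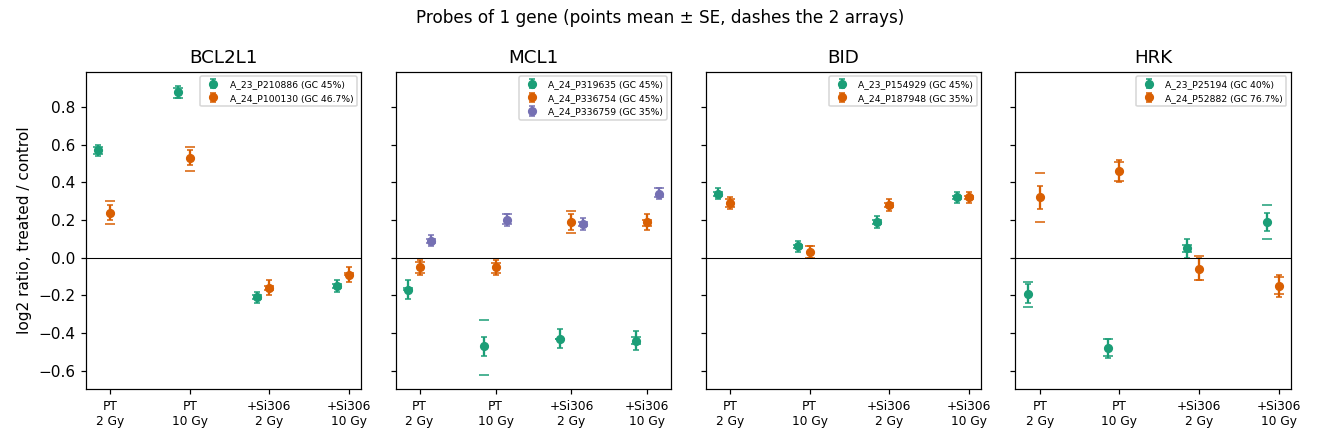
Log2 ratio of treated to control RNA (y axis) for each probe of BCL2L1, MCL1, BID and HRK in the 4 configurations (x axis), as the mean with its SE (points and bars) and the 2 arrays (dashes). The 2 BID probes lie on the same side of 0 in every configuration, whereas the 2 HRK probes lie on opposite sides of 0 in all 4 and the MCL1 probe A_24_P319635 lies below 0 in all 4.

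BAK1, the pore former among the members, was called higher in all 4 configurations. Its probe A_23_P145357 read 0.34 and 0.19 in U87 2 Gy, 0.47 and 0.37 in U87 10 Gy, 0.32 and 0.34 in U87 Si306 + 2 Gy and 0.48 and 0.52 in U87 Si306 + 10 Gy. The log2 fold change was 0.27 (1.20-fold, adjusted p = 0.000215), 0.42 (1.33-fold, adjusted p = 6.13e-06), 0.33 (1.25-fold, adjusted p = 3.72e-05) and 0.50 (1.42-fold, adjusted p = 1.65e-06), each with an SE of 0.04. The difference between 10 and 2 Gy was not called, at 0.15 (95% interval 0.02 to 0.28, adjusted p = 0.099) after protons and 0.17 (0.05 to 0.30, adjusted p = 0.0561) with Si306. Without array 1 of U87 2 Gy the former was 0.22 (adjusted p = 0.0365). Under median centring the 4 values were 0.59, 0.72, 1.13 and 1.04. With outlier spots kept BAK1 was called in none of the 4 configurations, at 0.07 (adjusted p = 1), 0.25 (adjusted p = 0.135), 0.28 (adjusted p = 0.0949) and 0.30 (adjusted p = 0.117). Probes of like GC content, within 2.5 points of 55%, had medians of 0.03 to 0.07.

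Of the BH3-only genes, BID and BMF were higher after 2 Gy and not called after 10 Gy. BID, which caspase-8 cleaves to link death receptors to mitochondria, read 0.33 and 0.35 with A_23_P154929 and 0.27 and 0.31 with A_24_P187948 in U87 2 Gy, against 0.05 and 0.07, and 0.06 and 0.00, in U87 10 Gy. The arrays of the doses did not overlap for either probe, which also held for other member probes, and the share of all probes was not counted. The log2 fold change in U87 2 Gy was 0.34 (SE 0.03, adjusted p = 4.27e-06) and 0.29 (SE 0.03, adjusted p = 1.88e-05), and 10 Gy was lower than 2 Gy by -0.28 (SE 0.04, adjusted p = 0.0016) and -0.27 (SE 0.05, adjusted p = 0.00276). Without the 2 arrays that hold a scan of the other label the latter was -0.22 (adjusted p = 0.0708). Si306 raised both probes at both doses, by 0.19 and 0.28 at 2 Gy and by 0.32 and 0.32 at 10 Gy, with adjusted p from 0.000304 to 6.36e-06. Under median centring without loess BID was higher in every configuration, at 0.88 and 0.95 in U87 2 Gy, 0.51 (adjusted p = 5.79e-09) and 0.57 (adjusted p = 1.37e-09) in U87 10 Gy, and with Si306 1.02 and 1.36 at 2 Gy and 0.88 and 1.02 at 10 Gy, while the difference between proton doses was -0.37 and -0.38. BMF, which is known as a sensor of detachment from the matrix, read 0.35 and 0.27 in U87 2 Gy and 0.00 and -0.07 in U87 10 Gy with A_23_P379649. It rose by 0.31 (SE 0.04, adjusted p = 2.17e-05) at 2 Gy, and the difference between the doses was -0.35 (SE 0.05, adjusted p = 0.00103), the largest of any member probe between the proton doses. Under median centring BMF was 0.61 at 2 Gy and was called higher at 10 Gy as well (0.21, adjusted p = 0.00138). With Si306, BMF was lower by a small amount, -0.09 (adjusted p = 0.0464) and -0.11 (adjusted p = 0.022), values that turned to 0.17 and 0.09 under median centring and were lost without either array of their own configuration (adjusted p = 0.289 and 0.105 at 2 Gy, 0.193 and 0.0834 at 10 Gy).

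BIK and BAD rose with Si306 at both doses. BIK, a BH3-only protein of the endoplasmic reticulum, read 0.57 and 0.44 in U87 Si306 + 2 Gy and 0.46 and 0.51 in U87 Si306 + 10 Gy with A_23_P404667. The log2 fold change was 0.50 (SE 0.04, 1.42-fold, adjusted p = 1.16e-06) and 0.49 (SE 0.04, 1.40-fold, adjusted p = 1.83e-06), the largest rise of any member at 2 Gy, and the doses differed by -0.02 (95% interval -0.14 to 0.11). With outlier spots kept these values were 0.09 (adjusted p = 0.0462) and 0.03 (adjusted p = 0.725), the latter not called, and in the log ratio of the scanner software 0.92 (adjusted p = 0.003) and 0.95 (adjusted p = 0.00298). In U87 2 Gy, where untreated RNA was not well above background, BIK was at least 1.03-fold higher (adjusted p = 0.0452), a call lost without array 2 of U87 2 Gy (adjusted p = 0.426) and without any 1 of the arrays of U87 10 Gy or U87 Si306 + 10 Gy (adjusted p = 0.0561 to 0.0661), and a value that turned to -0.27 under median centring. BAD, which AKT and other kinases keep inactive by phosphorylation, read 0.17 on both arrays of U87 Si306 + 2 Gy and 0.35 and 0.32 in U87 Si306 + 10 Gy with A_23_P150207. It rose by 0.17 (SE 0.03, adjusted p = 0.00118) and by 0.34 (SE 0.03, adjusted p = 8.14e-06), and the difference of 0.17 between the doses had an adjusted p of 0.0326. That difference was not called without any 1 of the 4 arrays of the slide (adjusted p = 0.0961 to 0.158) and turned to -0.20 under median centring. After protons alone BAD was not called (0.01, 95% interval -0.06 to 0.09, and 0.03, -0.04 to 0.11). Under median centring it was called in all 4 configurations, at 0.65 (adjusted p = 3.13e-11) and 0.57 (adjusted p = 6.11e-10) after protons and 1.23 and 1.03 with Si306.

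The probes of HRK, a BH3-only gene best known from neurons, went opposite ways. A_23_P25194, with a GC content of 40%, read -0.13 and -0.26 in U87 2 Gy and -0.52 and -0.43 in U87 10 Gy, whereas the BH3-coding probe A_24_P52882 read 0.19 and 0.45 in U87 2 Gy and 0.41 and 0.51 in U87 10 Gy. The first of these was below 0 and the second above 0 on all 4 arrays. The call of A_23_P25194 in U87 2 Gy was lost without its array 2 (adjusted p = 0.124). The mean log2 ratio was -0.19 (SE 0.05, adjusted p = 0.00518) and -0.48 (SE 0.05, adjusted p = 7.16e-06) for the former, and 0.32 (SE 0.06, adjusted p = 0.000682) and 0.46 (SE 0.06, adjusted p = 3.73e-05) for the latter. Tested probes with a GC content within 2.5 points of 76.7% had a median of 0.26 in U87 2 Gy and 0.36 in U87 10 Gy, and A_24_P52882 lay 0.06 and 0.11 above those medians. Near 40% the medians were -0.01 and -0.01. With Si306 the order of the probes was turned in U87 Si306 + 10 Gy, where A_23_P25194 was at least 1.14-fold higher (adjusted p = 0.00547), with control RNA not well above background, and A_24_P52882 read -0.15 (SE 0.06, adjusted p = 0.0469), while neither was called in U87 Si306 + 2 Gy (0.05 and -0.06). The call of A_23_P25194 was lost without array 2 of U87 Si306 + 10 Gy (adjusted p = 0.20), and that of A_24_P52882 without any 1 of the arrays of both 10 Gy configurations (adjusted p = 0.0701 to 0.339). Under median centring the values of A_23_P25194 were 0.33 in U87 2 Gy and -0.18 in U87 Si306 + 2 Gy, and its calls at 10 Gy were lost, at -0.04 (adjusted p = 0.575) in U87 10 Gy and with an adjusted p of 0.565 in U87 Si306 + 10 Gy. Those of A_24_P52882 after protons were 0.88 and 0.93, and its value of -0.08 in U87 Si306 + 10 Gy was not called (adjusted p = 0.302). In the log ratio of the scanner software A_24_P52882 read -0.39 in U87 Si306 + 10 Gy.

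BCL2L11, whose product BIM binds all the survival proteins, was measured close to the detection limit, and none of its 3 tested probes was called in U87 2 Gy. A_23_P309996 fell by 0.22 (SE 0.04, adjusted p = 0.000622) in U87 10 Gy, where its arrays read -0.30 and -0.14. Under median centring this fall was -0.48, and all 3 probes were called lower in U87 2 Gy (adjusted p = 4.11e-09 for A_23_P309991, 6.6e-05 for A_23_P309996 and 0.00744 for A_23_P425954). The overlapping probes A_23_P309991 and A_23_P425954 were at least 1.10-fold and 1.14-fold higher in U87 Si306 + 2 Gy (adjusted p = 0.00513 and 0.00307), with control RNA not well above background and the former well above it on both arrays only in treated RNA, through which it passed the filter. These calls were lost without array 2 of that configuration (adjusted p = 0.0779 and 0.13). They read -0.19 and -0.08 there under median centring. In U87 Si306 + 10 Gy A_23_P425954 was at least 1.11-fold higher (adjusted p = 0.0129), or not called without either of its arrays (adjusted p = 0.065 and 0.123). A_23_P309996 was called lower in both Si306 configurations (adjusted p = 0.00187 and 0.0316) with control RNA not well above background, so no fold is given. The call at 10 Gy was lost without either array of U87 Si306 + 10 Gy (adjusted p = 0.178 and 0.137). In the log ratio of the scanner software A_23_P309996 read -0.83 in U87 10 Gy, and A_23_P309991 was called lower in U87 2 Gy (adjusted p = 0.000371), where its treated RNA was not well above background.

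**Figure D3:**
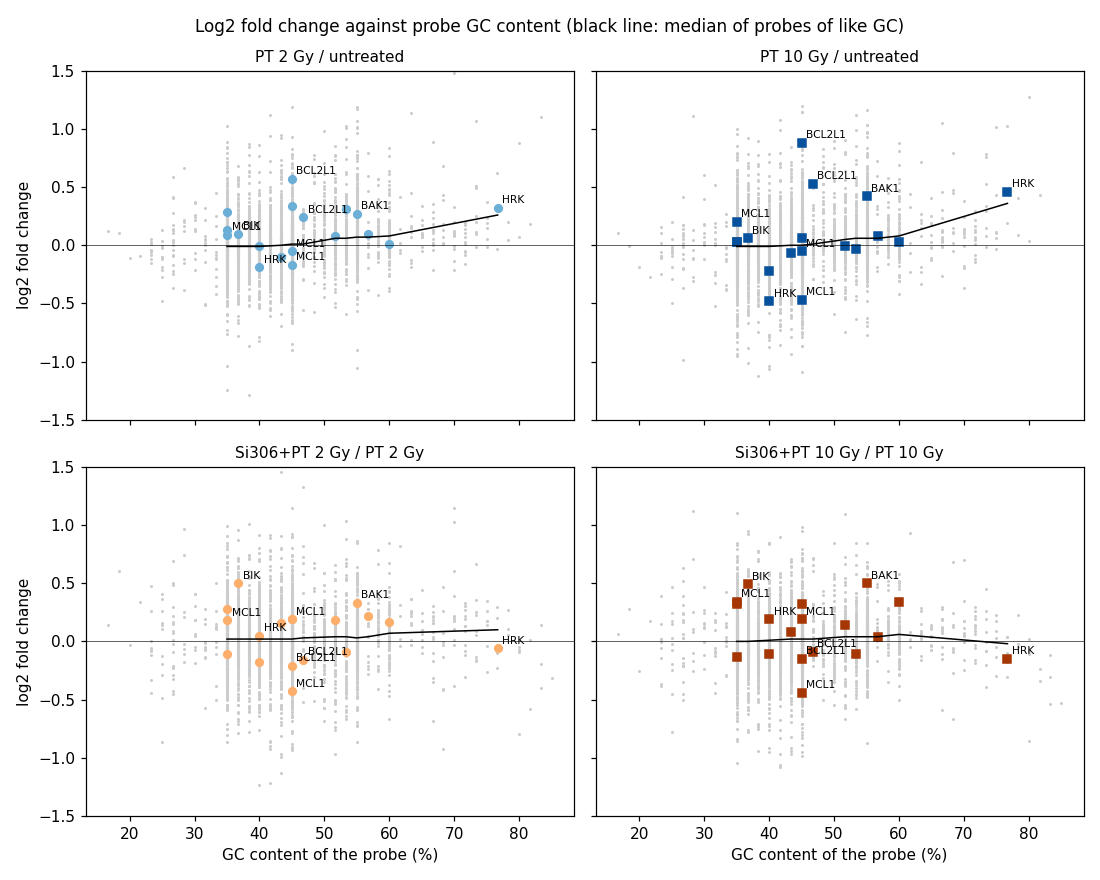
Log2 fold change (y axis) against the GC content of the probe in percent (x axis) in the 4 configurations; coloured symbols are the 18 member probes, grey points a random 4000 of the tested probes, of which 2 to 18 lie outside the axis at 1.5, and the black line joins the medians of probes of like GC content. The HRK probe at 76.7% lies near the line after protons, while BCL2L1, MCL1, BAK1 and BIK lie between 35% and 55%, where the line stays between -0.01 and 0.07.

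Between the doses, 2 member probes were called higher and 6 lower at 10 than at 2 Gy of protons (9.23% and 10.6% of all probes, 19.8% together), and for the addition of Si306 2 were higher and 1 lower (9.31% and 11.8%, 21.1% together). No member differed 2-fold between the doses, as 0.0395% of all probes did after protons and 0.155% with Si306. The higher ones after protons were the 2 probes of BCL2L1, of which A_24_P100130 had untreated RNA not well above background at either dose and gives no measured difference. The lower ones were both probes of BID, BMF, MCL1 A_24_P319635, BCL2L11 A_23_P309996 and HRK A_23_P25194. With Si306 they were MCL1 A_24_P336759 and BAD on the higher side and BCL2 A_23_P208132 on the lower. The differences of BCL2L1 A_23_P210886, BID A_23_P154929, BID A_24_P187948 and BMF remained called without any 1 array. That of BCL2L1 A_24_P100130 was not called without array 2 of U87 10 Gy (adjusted p = 0.0629), nor was that of HRK without array 1 of U87 10 Gy (-0.24, adjusted p = 0.118) or array 1 of U87 2 Gy (-0.22, adjusted p = 0.0896). That of BCL2L11 was -0.13 (adjusted p = 0.169) without array 1 of U87 10 Gy. When all 24 scans were kept in their labelled groups, so that an array of each proton dose also counted for the other, the calls depended on how scans of 1 array were treated. With the array as a random block 0 of the 8 were called, where only 0.0526% of all probes were, and BCL2L1 A_23_P210886 differed by 0.04 (adjusted p = 0.808). With the labelled replicate number as a block, where 22.8% of all probes were called, that probe differed by 0.20 (adjusted p = 0.0147). There the call of MCL1 A_24_P319635 alone was lost (-0.15, adjusted p = 0.144). Of the differences with Si306, those of MCL1 and BAD were lost without any 1 of the 4 arrays of the slide, and that of BCL2 without array 1 of U87 Si306 + 2 Gy (-0.12, adjusted p = 0.209) and without either array of U87 Si306 + 10 Gy (adjusted p = 0.108 and 0.122).

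The RNA of cells given protons alone was hybridized on both slides, in Cy5 against untreated cells and in Cy3 against cells with Si306, and its level in several members differed between the slides. HRK read 9.47 and 10.54 on the log2 scale with its 2 probes in Cy5 of U87 2 Gy and 6.65 and 7.26 in Cy3 of U87 Si306 + 2 Gy, a difference of -2.83 and -3.28. At 10 Gy it was -2.97 and -3.28. In the untreated RNA of the first slide, also in Cy3, these probes read 9.67 and 10.22 in U87 2 Gy. BAK1 was higher on the second slide by 1.66 at 2 Gy and 1.57 at 10 Gy, and the 3 MCL1 probes by 1.12 to 1.49. In all, 6 of the 18 probes at 2 Gy and 8 at 10 Gy differed by at least 1, where 26.6% and 26.8% of all tested probes did (SD 1.17 and 1.18). Slide, dye, hybridization and RNA preparation cannot be told apart here. The ratios within an array do not use these levels, but a sum of the ratios of both slides, which would set Si306 and protons against untreated cells, rests on the RNA being alike. That sum was 0.92 (SE 0.06, adjusted p = 2.25e-07) for BAK1 and -0.91 (SE 0.08, adjusted p = 1.73e-06) for MCL1 A_24_P319635 at 10 Gy, and 0.73 (SE 0.05, adjusted p = 2.1e-07) for BCL2L1 A_23_P210886 at 10 Gy. Over the members, 12 of 18 probes were called higher and 2 lower in the sum at 2 Gy (39.7% and 26.9% of all probes, 66.6% together) and 10 higher and 4 lower at 10 Gy (37.4% and 28.1%, 65.5% together), none by 2-fold (1.84% and 2.06% of all probes).

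**Figure D4:**
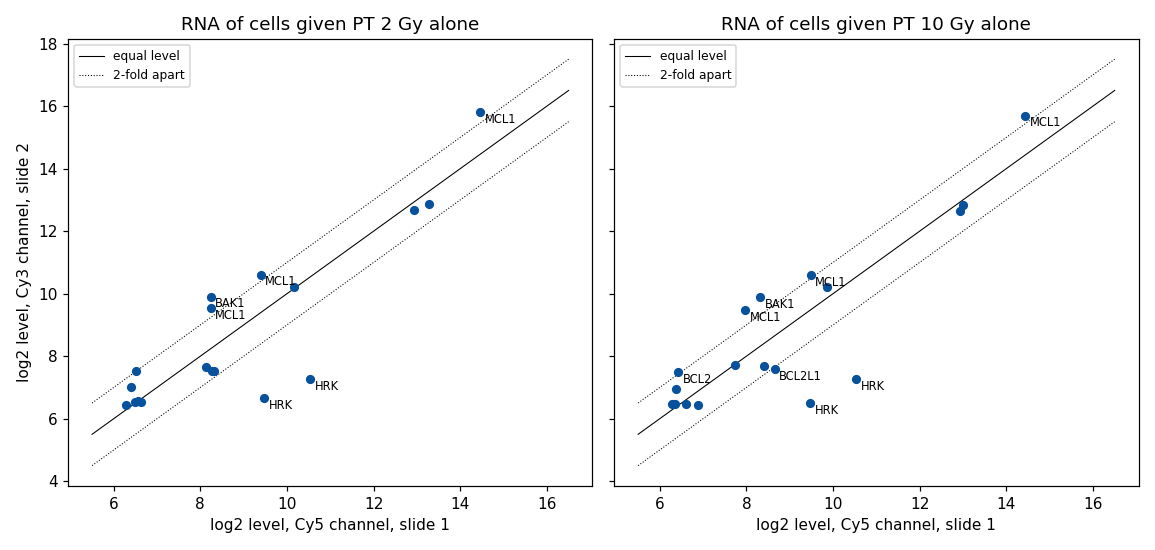
Log2 level of the 18 member probes in RNA of cells given protons alone, in Cy5 on the slide of PT alone (x axis) and in Cy3 on the slide of Si306 (y axis), at 2 Gy (left) and 10 Gy (right), as the mean of 2 arrays after Aquantile scaling; the solid line marks equal levels and the dotted lines a 2-fold difference, and probes at least 2-fold apart are named. HRK lies furthest from the line, with differences of -2.83 to -3.28, and MCL1 and BAK1 lie above it.

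Other genes of the pathway were counted from lists. Of 25 tested probes of other BCL2 relatives, 8 were called higher and 10 lower in U87 2 Gy, 9 and 8 in U87 10 Gy, 7 and 8 in U87 Si306 + 2 Gy and 8 and 9 in U87 Si306 + 10 Gy. In either direction these were 72%, 68%, 60% and 68% of the list, beside 57.2%, 58.2%, 64.8% and 60.9% of all tested probes. The largest change was that of BBC3 (PUMA), a BH3-only target of p53, whose probe A_23_P90189 rose by 2.28 (SE 0.05, adjusted p = 7.05e-11) and 2.79 (SE 0.05, adjusted p = 7.11e-12) after protons and read -0.64 (adjusted p = 9.83e-07) when Si306 was added to 10 Gy. This probe has a GC content of 85%, and the BBC3 probe of 55%, A_23_P382775, rose by 0.32 (adjusted p = 2.8e-05) and 1.21 (adjusted p = 1.01e-09), and that of 60%, A_24_P305312, by 0.26 (adjusted p = 0.000801) and 0.34 (adjusted p = 0.000105). When Si306 was added to 10 Gy these probes did not follow the first, at 0.17 (adjusted p = 0.00202, higher) for A_23_P382775 and 0.02 (adjusted p = 0.761) for A_24_P305312. In U87 Si306 + 2 Gy the largest change was that of BECN1 (A_23_P433071), an autophagy protein bound by BCL2, at -0.57 (adjusted p = 2.38e-07), and its other probes disagreed, with A_24_P313597 lower at -0.31 (adjusted p = 3.05e-05) and A_23_P89410 higher at 0.11 (adjusted p = 0.015). Of 20 probes of the mitochondrial death machinery, 8 were higher and 6 lower in U87 2 Gy, 8 and 8 in U87 10 Gy, 7 and 5 in U87 Si306 + 2 Gy and 8 and 5 in U87 Si306 + 10 Gy, in either direction 70%, 80%, 60% and 65% of this list against the same shares of all probes. VDAC1 (A_32_P163169), a channel of the outer membrane, fell by 0.62 and 0.68 after protons (adjusted p = 5.89e-08 and 2.12e-08), and APAF1 (A_23_P36611), the scaffold of the apoptosome, rose by 0.53 and 0.63 with Si306 (adjusted p = 1.58e-07 and 6.47e-08).

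Of 35 probes of regulators and partners of members, 17 were higher and 10 lower in U87 2 Gy and 16 and 13 in U87 10 Gy. With Si306 6 were higher and 19 lower at 2 Gy and 4 and 18 at 10 Gy. In either direction these were 77.1%, 82.9%, 71.4% and 62.9% of the list, beside the shares of all probes given above. Several probes of 1 gene are not independent, and 13 of the 35 belong to the 14-3-3 genes YWHAB, YWHAE and YWHAZ, whose products hold phosphorylated BAD. They made up 10 of the 19 lower with Si306 at 2 Gy (5 of YWHAZ, 3 of YWHAE and 2 of YWHAB) and 8 of the 18 lower at 10 Gy (3, 4 and 1). The median log2 fold change of this list was -0.13 and -0.12 with Si306 and 0.07 at both doses of protons. HUWE1 (A_23_P219207), a ligase that marks MCL1 for degradation, fell by 0.53 (adjusted p = 1.11e-06) in U87 2 Gy, JUN (A_23_P201538) rose by 0.64 (adjusted p = 3.29e-08) in U87 10 Gy, and E2F1 (A_23_P80032) fell by 0.66 (adjusted p = 2.47e-08) and 0.75 (adjusted p = 1.85e-08) with Si306. Among the irradiation check genes, both probes of CDKN1A (p21) rose after protons, A_24_P89457 by 0.67 (adjusted p = 5.17e-07) and 1.33 (adjusted p = 2.31e-09). The MDM2 probe A_23_P309545 fell by 0.21 (adjusted p = 0.000946) at 2 Gy and rose by 0.10 (adjusted p = 0.0445) at 10 Gy, and the other one, A_23_P502750, read 0.05 (adjusted p = 0.172) and 0.27 (adjusted p = 3.24e-05).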

How the data were processed

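The authors deposited Agilent Feature Extraction tables (version 9.5.3.1 per the file headers) which hold, for each spot, a Cy5 and a Cy3 intensity and the log10 ratio that the scanner software made of them, and a series matrix that holds the same log10 ratio rounded (largest difference 0.005). Mean intensities were corrected for the median local background (normexp, offset 50) and loess-normalized within each scan with limma 3.58.1 in R 4.3.3. Spots marked as outliers in the spot or its background (2.98% to 5.73%) were left out before the normexp fit, and control spots had weight 0 in the loess. Spots were averaged for each probe and scans for each array. A probe was kept (30418 of 41000) if some configuration had it well above background, in Cy5 or Cy3, on a share of 0.67 or more of its arrays, and 8 arrays entered 1 limma fit on log2 ratios (residual df 4, prior df 6.79), with Benjamini-Hochberg adjustment over all tested probes. For 2-colour arrays the direction follows the labels. The labels give the dyes, Cy5 treated and Cy3 control, and no 2 arrays correlated below -0.0728. The fit was tested on simulated data. Members and lists were chosen with earlier results of these data known. All member probes are named, and other genes by the largest or smallest absolute change among called probes of their list. The other probes of BBC3, BECN1, VDAC1 and MDM2 and the counts for the 14-3-3 genes were added after values were seen. Alternatives are given at the end. The number of arrays limits the precision. The value of 1 marker gene is not reported here.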

Additional observations from a re-analysis of the deposited data

Results flagged for a closer look

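Several member probes had a fold change that differed between 10 and 2 Gy by the limma test of that difference itself, with the adjustment over all probes. After protons the change at 10 Gy exceeded that at 2 Gy by 0.31 (log2, adjusted p = 0.00116) for BCL2L1 A_23_P210886. For BCL2L1 A_24_P100130 the readings differed by 0.29 (adjusted p = 0.00584), but its untreated RNA was not well above background on any array and it passed the filter only through irradiated RNA, so this is no measured difference and no support for the other probe. The difference was -0.31 (adjusted p = 0.0181) for MCL1 A_24_P319635, -0.28 (adjusted p = 0.0016) and -0.27 (adjusted p = 0.00276) for BID A_23_P154929 and A_24_P187948, -0.21 (adjusted p = 0.024) for BCL2L11 A_23_P309996, -0.35 (adjusted p = 0.00103) for BMF and -0.28 (adjusted p = 0.0142) for HRK A_23_P25194. For the addition of Si306 it was -0.19 (adjusted p = 0.0292) for BCL2 A_23_P208132, 0.16 (adjusted p = 0.034) for MCL1 A_24_P336759 and 0.17 (adjusted p = 0.0326) for BAD.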

How the results depend on the processing

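Of 2286 alternative values of single member probes, 2025 kept their direction and their side of the threshold, 68 moved past the threshold, 166 no longer passed it and 27 reversed. Of 63 called member values, 13 were kept under each alternative that gave them a value and 33 under each other than median centring and keeping outlier spots, in both cases leaving aside the 2-fold limit, which kept 0, and separate channels, which were run for counts only. Median centring without loess moved the median of all probes to 0.24, 0.20, 0.36 and 0.21 in U87 2 Gy, U87 10 Gy and the Si306 configurations at 2 and at 10 Gy, and the percent of called probes that were higher from 56.1, 54, 56 and 54.3 to 68.7, 69.6, 67.6 and 69.9. Relative to that shift 53 of the 63 calls kept their sign.

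Under it the log2 fold change in U87 2 Gy turned to -0.16 for BCL2 A_23_P352266, -0.03 for BCL2L1 A_24_P100130, 0.20 for MCL1 A_24_P319635, 0.66 for MCL1 A_24_P336754, -0.17 for BCL2L11 A_23_P425954, -0.27 for BIK and 0.33 for HRK A_23_P25194. In U87 10 Gy it turned to -0.23 for BCL2 A_23_P352266, 0.54 for MCL1 A_24_P336754, -0.23 for BIK and 0.21 for BMF. In U87 Si306 + 2 Gy it turned to 0.09 for BCL2 A_23_P352266, 0.27 for MCL1 A_24_P319635, -0.19 and -0.08 for BCL2L11 A_23_P309991 and A_23_P425954, 0.17 for BMF and -0.18 for HRK A_23_P25194. In U87 Si306 + 10 Gy it turned to 0.01 for BCL2 A_23_P352266 and BCL2L1 A_23_P210886, 0.02 for MCL1 A_24_P319635, -0.04 for BCL2L11 A_23_P425954 and 0.09 for BMF. The Si306 dose difference turned to -0.14 for MCL1 A_24_P336759, -0.20 for BAD and -0.34 for BID A_24_P187948. Counts of member calls moved to 5 lower in U87 2 Gy, 11 higher and 6 lower in U87 10 Gy, 2 lower in U87 Si306 + 10 Gy and 5 lower for the Si306 dose difference. The scanner log ratio and the series matrix each reversed MCL1 A_24_P336754 in U87 Si306 + 2 Gy (-0.02), and the matrix gave 2 lower for the Si306 dose difference. The cause of these changes was not tested.

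With every spot marked as an outlier kept, 11.3%, 12.2%, 22.4% and 13.6% of all probes were called in the 4 configurations. Between doses 1.32% were after protons and 1.04% with Si306. Among member probes, keeping these spots gave 3 higher and 0 lower in U87 2 Gy, 1 and 0 in U87 10 Gy, 6 and 0 with Si306 at 2 Gy, 5 and 0 with Si306 at 10 Gy, 0 and 1 between proton doses and 0 and 0 between Si306 doses. Some such spots lay far below their local background (signal minus background down to -63720 in Cy5 of U87 2 Gy replicate 1), and the background mean fitted by normexp on that scan went from -3.9 to -979.6. An alternative chosen after seeing the data, which left out only spots with a marked background, moved none of these counts by over 1.5 times. An offset of 10 gave 1 lower in U87 2 Gy and 0 in either direction between Si306 doses, as did no filter for the latter. Of all probes that offset called 53.7% in U87 2 Gy and 14.5% between Si306 doses, where no filter called 11.8%. The stricter filter gave 1 lower in U87 2 Gy, 1 lower in U87 10 Gy, 3 lower in U87 Si306 + 2 Gy and 4 higher between Si306 doses. Of all probes it kept, 70.5%, 71.7% and 75.6% were called in these configurations and 33.3% between Si306 doses. One probe for each gene gave 7 higher and 0 lower in U87 2 Gy, 3 and 0 in U87 10 Gy, 2 lower in U87 Si306 + 2 Gy, 3 lower in U87 Si306 + 10 Gy, 1 higher and 2 lower between proton doses and 1 higher between Si306 doses, with fewer probes tested. Of all probes in that setting 57%, 57.3%, 66.4% and 62.3% were called in the 4 configurations. Between doses 21% were after protons and 22.6% with Si306. Separate channels gave 7 higher and 5 lower in U87 2 Gy and 8 higher and 6 lower in U87 10 Gy, and 45.9, 45.9, 47.3 and 45.8 percent of called probes were higher. They called 81%, 80.8%, 81.5% and 82.1% of all probes, with an SD over all probes of 1.14 in U87 2 Gy, beside 0.266 in the fit of the report. As the dyes were never swapped, this model tells dye from treatment only through levels compared between the slides, so these counts are no check of the calls. A limit of 2-fold left 0 of the calls in every comparison under the scaling used for the report.

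All 24 scans with the array as a random block gave 8 higher in U87 10 Gy, 0 higher and 0 lower between proton doses and 0 lower between Si306 doses. Of all probes this fit called 58.6% in U87 10 Gy, 0.0526% between proton doses and 17.4% between Si306 doses. With the labelled number as a replicate block all 24 scans gave 9 higher in U87 10 Gy and 5 higher between Si306 doses. There 70.3% and 43.2% of all probes were called. The numbers did not pair the samples, since deviations of same-numbered scans correlated from -0.225 to 0.224 over 36 pairs. Without the 2 arrays that hold a scan of the other label there was 1 higher between proton doses and 0 lower between Si306 doses, and each slide fitted alone also gave 0 lower for the latter. Leaving out 1 array at a time, where the lone array is assumed to vary like the others, gave 8 to 11 higher and 1 to 2 lower in U87 2 Gy, 5 and 3 in U87 10 Gy each time, 8 to 10 higher and 3 to 6 lower in U87 Si306 + 2 Gy, 7 to 10 higher and 2 to 6 lower in U87 Si306 + 10 Gy, 1 to 3 higher and 3 to 6 lower between proton doses, and 0 to 3 higher and 0 to 1 lower between Si306 doses.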
